A study of Mus musculus with 30 samples.

Results

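Untreated mouse aortic smooth muscle cells that had received a control plasmid were compared with cells of the same sequencing run that had received a control antisense oligonucleotide. The comparison held 5 of the 30 libraries of the series: 3 of the plasmid control and 2 of the antisense control, chosen by their labels alone. The antisense control is a GapmeR, a short oligonucleotide with a DNA core and modified ends that recruits RNase H to the RNA it binds, here with a control sequence. The plasmid group is labelled as the overexpression control, and the labels do not state what its plasmid carries. All 5 cultures were kept 48 h without serum, were transfected for at least 24 h with 1 µg/ml of nucleic acid, and received neither angiotensin II nor PDGF-BB. The antisense oligonucleotide went in with Fugene HD, and the reagent used for the plasmid is not named. The labels give a batch for each library: plasmid and antisense replicate 1 share batch P17, replicate 2 shares batch P18, and plasmid replicate 3 is from batch P19, which holds no antisense library of this run. The run has no untransfected cells, so a gene that differs may have been moved by the plasmid, by the oligonucleotide or by the reagent, and these cannot be told apart. The genotype, sex and age of the donor mice are not given in the sources used here, and the growth protocol speaks of mouse and rat cells.

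Double-stranded DNA in the cytosol is sensed by cGAS, which makes the second messenger cGAMP. cGAMP activates STING, the kinase TBK1 and the transcription factor IRF3, which switch on the gene of interferon beta. Secreted interferon beta acts through the receptor chains IFNAR1 and IFNAR2 and factors that include STAT2 and IRF9, which bind the interferon-stimulated response element of many antiviral genes. Cultured smooth muscle cells, like fibroblasts, can mount this response, and plasmid DNA delivered by lipid reagents is a known trigger of it.

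The 5 libraries held 18007199 to 21878931 expected counts. No pair of replicates was a duplicate, and plasmid replicate 3 stood apart: its Spearman correlation with the other plasmid libraries over genes was 0.970 and 0.975, against 0.989 between those and 0.992 between the antisense libraries. Of the defining smooth muscle markers, Acta2 was read at 111 and 118 CPM (counts scaled to a common library size) in the antisense libraries and at 126, 165 and 441 CPM in plasmid replicates 1 to 3. Tagln lay at 1.53 to 3.14 CPM, Myh11 at 0.340 to 1.09 CPM and Cnn1 at 0 to 3 counts in all 5 libraries, so the late contractile markers were near absent. Endothelial Cdh5 and Tie1 and macrophage Adgre1 and Tyrobp had no count in any of the 5. Other members of these lists were read at low levels. Endothelial Vwf lay at 1.3 to 2.64 CPM, about the level of Tagln, and Pecam1 at 0.794 to 1.93 CPM. Macrophage Cd68 lay at 0.267 to 0.99 CPM and Lyz2 at 0 to 0.964 CPM. Adventitial Pdgfra lay at 35.5 and 36.1 CPM with antisense and at 30.8, 23.5 and 7.94 CPM with plasmid, and Ly6a, a gene that interferon also induces, at 5.21 and 12.99 CPM against 21.9, 130 and 296 CPM. The 6 adventitial markers together summed to 59.8 and 77.6 CPM with antisense and to 66.2, 172 and 306 CPM with plasmid. That sum follows Ly6a and not the list as a whole. Of the 5 tested members only Ly6a had a log2 fold change above 0, and the median of the list was -0.46. For Pdgfra and Pi16 every plasmid library lay under both antisense libraries. Epithelial Cdh1 lay at 43.7 to 63.8 CPM and Krt19 at 206 and 226 CPM with antisense and 158, 139 and 233 CPM with plasmid, with Epcam at 0. None of the tested markers of these 5 cell types passed the test without a batch block, with it Krt19 was lower (adjusted p = 0.0435), and their part in the results was not tested.

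Most genes called between the plasmid and antisense libraries were higher with plasmid. Of 15350 genes tested, 177 were higher with plasmid (1.15%) and 4 were lower (0.0261%) at an adjusted p under 0.05 by the quasi-likelihood test of edgeR, adjusted by Benjamini and Hochberg's method. All 177 were higher in every plasmid library than in either antisense library and higher within batch P17 and within batch P18. For scale, 2293 of the tested genes (14.9%) showed such a separation of the groups with plasmid higher, and 2018 with plasmid lower. The median log2 fold change of the 177 was 3.86, or 3.80 with the 10 genes that had no antisense count set to their lower bound, and 140 of them differed by 2 or more on the log2 scale. The median over all tested genes was 0.004. With the batch as a block, 363 genes were higher (2.36%) and 96 lower (0.625%), and 167 of the 177 were among them. With batches P17 and P18 alone and the block, 526 were higher and 302 lower, so the share of higher calls depended on the fit. Without plasmid replicate 3, 157 of the 177 remained. Leaving out antisense replicate 1 or 2 left 74 and 67 genes higher, and then a lone antisense library was assumed to vary like the other groups. The p-values rest on a spread between libraries that was estimated over all 10 libraries of run 2, the CASC15 libraries included. Fitted to the 5 libraries alone, 101 genes were higher and 0 lower. The labels do not say that replicates were separate cultures, so this is a spread between libraries and not known to be 1 between cultures.

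**Figure D1:**
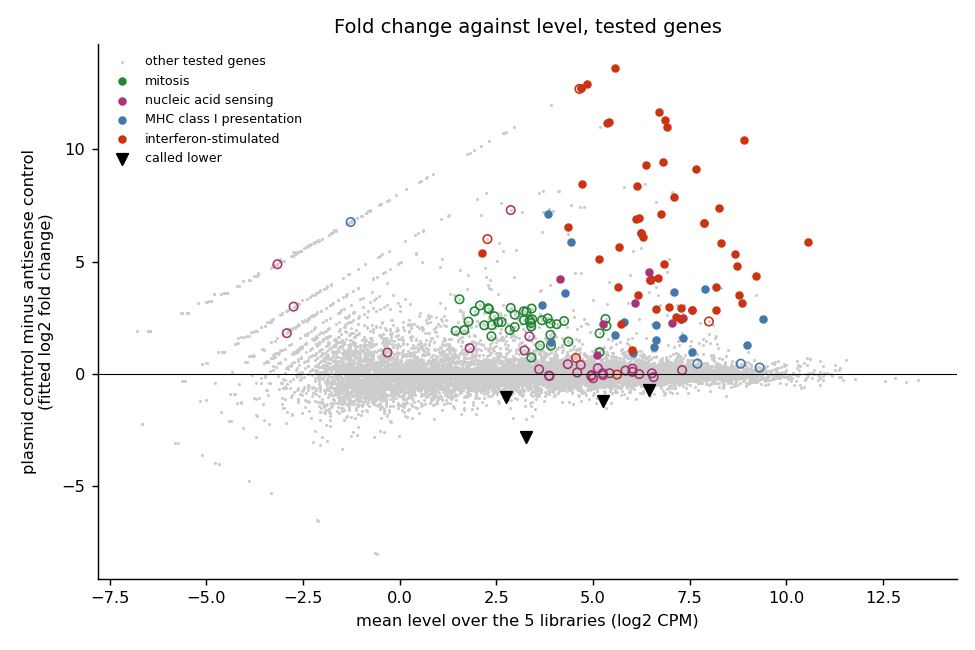
Each point is a tested gene, with its mean level over the 5 libraries on the x axis (log2 CPM) and the fitted log2 fold change of plasmid over antisense control on the y axis. Filled circles passed the test and open circles did not, for 4 gene lists, and black triangles are the 4 genes called lower. The 19 tested genes without a count in these 5 libraries are not drawn. The interferon-stimulated genes stand above the cloud of other genes.

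Interferon-stimulated genes made up the largest group among the 15 gene lists. Of 53 listed genes, all tested, 48 were higher with plasmid and none lower, against 1.15% of all tested genes called higher, and their median log2 fold change was 5.84. Together the 53 genes took 0.0779% and 0.0926% of all counts in the antisense libraries. They took 0.905%, 1.67% and 1.83% in plasmid replicates 1 to 3. More cells responding and more RNA per responding cell cannot be told apart in such bulk libraries. The 5 members that did not pass were Ifit2, Rsad2, Gbp5, Isg20 and Ifi27. Rsad2, the antiviral enzyme viperin, had no count with antisense and 6.17, 40.8 and 78.2 CPM with plasmid, but its adjusted p was 0.0899. Ifi27 had a log2 fold change of -0.03.

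**Figure D2:**
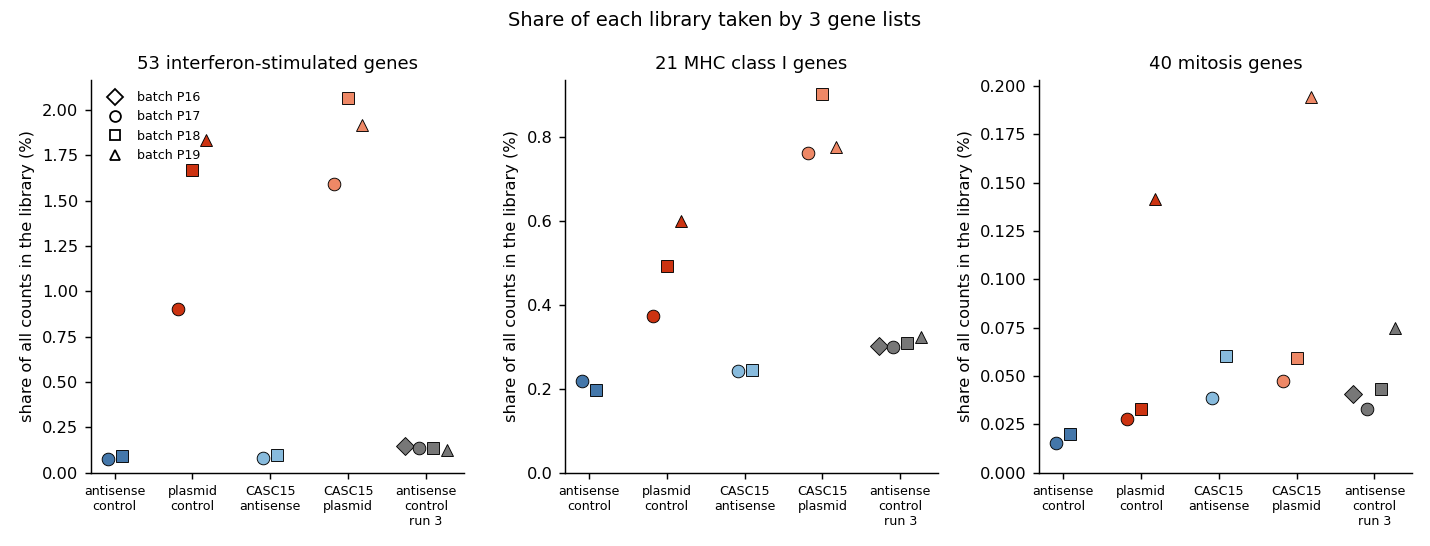
Share of all counts in a library (%) taken by the interferon-stimulated, MHC class I and mitosis lists, 1 point per library, shaped by batch. For the interferon-stimulated list the plasmid controls lie at 0.905% to 1.83% and the antisense controls under 0.1%, and for the mitosis list plasmid replicate 3, at 0.141%, lies far above the other 2 plasmid controls.

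Because these genes moved together, their RefSeq promoters (build GRCm38.p6, 250 bases before to 50 after the transcript start) were searched for the core of the interferon-stimulated response element. The letters searched were GAAANNGAAA and, for the other strand, TTTCNNTTTC, with overlaps counted. Of the 53 listed genes 40 matched the promoter table, and 22 of those (55.0%) held the core in at least 1 promoter. Among all 27025 genes of the table it was 1079 (4.0%), and among tested genes that were not called it was 3.3%. Of the 95 matched genes that were called higher but are not on the list, 38 held it. For the mitosis list it was 3 of 34 genes (8.8%). Printed promoters read 5′ to 3′ on the gene's own strand, with matches in capitals. The called member Zbp1, with a log2 fold change of 12.74, had no match in the promoter table. Of the called list members in that table, the 3 with the largest fitted fold change are shown:
Trim30a (chr7:104465144-104465443, minus strand): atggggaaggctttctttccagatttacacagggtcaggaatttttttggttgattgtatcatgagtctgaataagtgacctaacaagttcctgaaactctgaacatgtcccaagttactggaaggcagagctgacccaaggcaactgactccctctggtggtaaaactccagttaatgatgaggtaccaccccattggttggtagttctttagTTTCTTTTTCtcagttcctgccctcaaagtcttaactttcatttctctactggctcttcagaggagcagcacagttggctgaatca
Oas3 (chr5:120777610-120777909, minus strand): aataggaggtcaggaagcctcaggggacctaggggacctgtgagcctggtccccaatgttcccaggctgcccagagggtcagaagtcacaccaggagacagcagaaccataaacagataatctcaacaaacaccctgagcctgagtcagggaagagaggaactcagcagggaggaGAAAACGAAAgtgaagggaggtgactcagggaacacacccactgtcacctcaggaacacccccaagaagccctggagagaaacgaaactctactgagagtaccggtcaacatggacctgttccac
Ifi44 (chr3:151749861-151750160, minus strand): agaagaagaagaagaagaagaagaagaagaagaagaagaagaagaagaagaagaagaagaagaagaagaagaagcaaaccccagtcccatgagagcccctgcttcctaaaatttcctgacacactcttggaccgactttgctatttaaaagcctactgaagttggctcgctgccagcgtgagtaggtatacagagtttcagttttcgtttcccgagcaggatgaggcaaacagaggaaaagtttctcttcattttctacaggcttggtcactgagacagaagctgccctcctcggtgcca
In Trim30a the match begins 36 bases before the transcript start and reads on the other strand, and in Oas3 it begins 75 bases before the start. Ifi44 holds no match to these letters in this window. A match describes the sequence and is no evidence of binding.

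Among genes of nucleic acid sensing only some moved. Of 42 tested genes of nucleic acid sensing, 14 were higher with plasmid (33.3%, against 1.15% of all tested genes) and none lower, with a median log2 fold change of 0.89, or 0.63 with genes without antisense counts at their bound, and without either antisense replicate 9 were higher. Cgas, the cytosolic DNA sensor, lay at 0.579 and 0.445 CPM with antisense and at 1.04, 0.990 and 0.964 CPM with plasmid. Its levels did not overlap, but at this depth the difference did not pass the test (log2 fold change 0.95 ± 0.47 SE, adjusted p = 0.570). Sting1, its adaptor, listed as Tmem173, was read at 2.36 and 1.68 CPM with antisense and at 2.39, 1.98 and 9.13 CPM with plasmid, where only replicate 3 stood out (adjusted p = 0.622). Below them, the log2 fold change was 0.23 ± 0.15 for Tbk1, -0.05 ± 0.16 for Irf3 and -0.06 ± 0.10 for the RNA-sensing adaptor Mavs, and none passed the test. Ddx41, Dhx9, Xrcc5, Xrcc6 and Prkdc, other proposed DNA sensors, had log2 fold changes from -0.01 to 0.16.

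Other sensors, whose genes interferon is known to induce, rose. Ifih1, the double-stranded RNA sensor MDA5, was read at 7.17 and 8.64 CPM with antisense and at 95.0, 160 and 173 CPM with plasmid (log2 fold change 4.17 ± 0.30, adjusted p = 0.000138). Ddx58, the RNA sensor RIG-I, went from 35.8 and 45.9 CPM to 186, 345 and 335 CPM. Dhx58, their regulator LGP2, went from 1.38 and 1.78 CPM to 72.4, 156 and 143 CPM. For all 3 the groups were far apart and plasmid replicate 1 was the lowest plasmid library. Zbp1, a sensor of left-handed nucleic acids that drives cell death, had no count in either antisense library and lay at 11.3, 41.2 and 77.2 CPM with plasmid. It was at least 306.5-fold higher, taking 3 counts per library as the floor (adjusted p = 0.0127, and 0.0639 with the batch block). With the 5 libraries alone (0.0921) or without antisense replicate 1 (0.142) or 2 (0.131) it was not called either. Tlr3, the endosomal sensor of double-stranded RNA, rose by 3.16 ± 0.55 on the log2 scale, and Tlr2 and Tlr4 did not pass (0.43 ± 0.21 and 0.25 ± 0.18). Of 12 tested genes of the Ifi200 cluster, relatives of the DNA sensor IFI16 grouped after the values were seen, 7 rose and 5 did not pass. Ifi204 went from 5.39 and 6.77 CPM to 56.6, 145 and 220 CPM. Aim2 of the same cluster was at 0 to 0.567 CPM throughout. Of the enzymes that limit sensing, the nuclease Trex1 rose by 2.23 ± 0.24, Samhd1, which depletes nucleotides, by 2.50 ± 0.35 and the RNA editor Adar by 2.25 ± 0.17 on the log2 scale. The nuclease genes Dnase2a, Rnaseh2a, Rnaseh2b and Rnaseh2c of the same list did not pass, with log2 fold changes of -0.08, -0.20, 0.20 and -0.10.

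Transcripts of interferon itself were scarce. Ifnb1, interferon beta, had 0 counts in both antisense libraries and 0, 5 and 5 counts in plasmid replicates 1 to 3, and did not pass the test (adjusted p = 0.525). Over 21 interferon genes the summed counts were 3 and 0 with antisense and 1, 8 and 12 with plasmid. Plasmid replicate 1 therefore had as few interferon counts as the antisense libraries, while its interferon-stimulated list stood at 0.905% of the library. The receptor genes had log2 fold changes of -0.15 ± 0.11 for Ifnar1 and 0.15 ± 0.12 for Ifnar2, and neither passed.

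Genes that carry the signal from the receptor to the nucleus rose. Stat2 lay at 26.5 and 37.5 CPM with antisense and at 309, 560 and 519 CPM with plasmid (log2 fold change 3.86 ± 0.28, adjusted p = 0.000138). Its partner Irf9 rose by 2.53 ± 0.16 on the log2 scale. Irf7, the interferon-induced factor that amplifies interferon production, went from 3.65 and 3.70 CPM to 198, 484 and 474 CPM, but was not called with batches P17 and P18 alone and the block (log2 fold change 6.41, adjusted p = 0.0826). Irf1 rose less, by 1.05 ± 0.17. In families grouped by symbol after the values were seen, Irf3, Irf5 and Irf2 did not pass. Usp18, which blocks the receptor and removes ISG15 from proteins, went from 0.267 and 0.247 CPM to 94.9, 199.5 and 263 CPM. Socs1, a kinase inhibitor of the pathway, was the only member of 8 tested Socs family genes called, at a log2 fold change of 1.53.

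Antiviral effectors were among the largest differences. Ifit1, which binds foreign RNA ends, was read at 0.624 and 0.543 CPM with antisense and at 439, 860 and 1111 CPM with plasmid (log2 fold change 10.41 ± 0.61, adjusted p = 7.12e-05). Isg15, a ubiquitin-like modifier, went from 0.846 and 1.09 CPM to 129, 228 and 321 CPM (7.87 ± 0.49, adjusted p = 9.46e-05). The smallest adjusted p of all tested genes, 2.07e-06, was that of Rtp4, an inhibitor of viral replication, with 0.267 and 0.445 CPM against 92.1, 122.5 and 139 CPM. In all 3 genes the order of the plasmid libraries was the same, with replicate 1 the lowest and replicate 3 the highest. Bst2, the tether that holds virions at the cell surface, reached 350, 519 and 686 CPM from 9.09 and 9.04 CPM. The GTPase Mx1 went from 0.312 and 0.395 CPM to 11.4, 46.6 and 43.8 CPM.

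Several effectors had few or no counts in the 2 antisense controls of run 2. Trim30a, a regulator of innate signalling, and Oas3, an oligoadenylate synthetase that activates RNase L, had no count in the antisense libraries. Trim30a lay at 20.9, 87.4 and 128 CPM with plasmid and was at least 559-fold higher (adjusted p = 0.00651; the batch block gave 0.0512). Oas3 lay at 8.15, 57.9 and 78.1 CPM and was at least 341-fold higher (adjusted p = 0.0197; the batch block gave 0.131). Slfn5, a Schlafen family gene, was at least 78.9-fold higher (adjusted p = 0.0200), but was not called with the 5 libraries alone, without batch P19, without plasmid replicate 2 or without either antisense library (adjusted p from 0.0601 to 0.193). Oas3 lost its call under the same settings (0.0594 to 0.191), and Trim30a with the 5 libraries alone or without either antisense library (0.0698 to 0.0840). Ifi44 had 2 antisense counts in all and lay at 60.2, 194 and 268 CPM with plasmid, a ratio of 3528 with a 95% interval of 977 to 29140 that covers counting error only. Oas2, with 3 antisense counts, had a ratio of 2633 (901 to 12770), and Cmpk2, a mitochondrial nucleotide kinase, with 1 count, a ratio of 2867 (514 to 113300). These intervals leave out the spread between libraries, and without either antisense library Cmpk2 was no longer called (adjusted p up to 0.0662). Oas1a rose from 0 and 0.198 CPM to 85.5, 221 and 300 CPM (10.98 ± 0.90), and Oas1g, with 1 antisense count, lay at 22.4, 76.0 and 108 CPM. Oas1a and Oas1g are near-identical copies, as are Ifit3 and Ifit3b or Tgtp1 and Tgtp2, and how the counting split reads between them is uncertain.

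**Figure D3:**
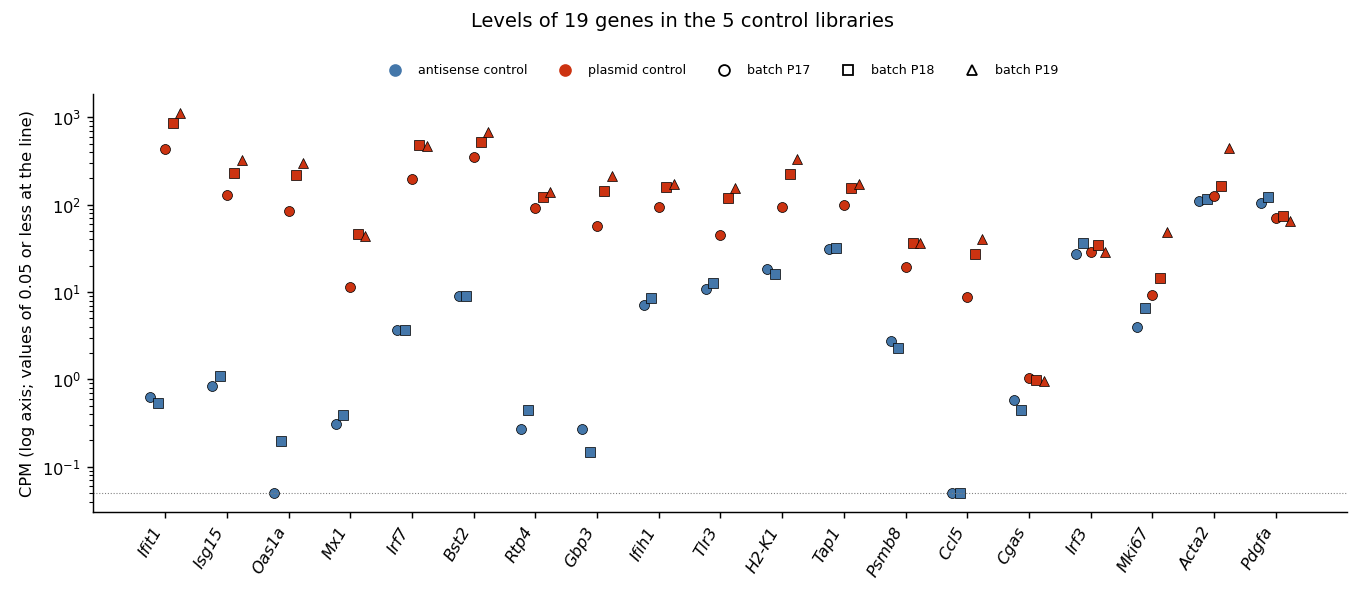
Levels in CPM (log axis) of 19 genes in the 5 control libraries, 1 point per library, coloured by group and shaped by batch; values of 0.05 or less sit on the dotted line. From Ifit1 to Ccl5 every plasmid library lies above both antisense libraries, while Irf3 overlaps and Mki67 and Acta2 are highest in the plasmid library of batch P19.

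Families were also grouped by symbol after the values were seen, and many of their members are on the lists already. Of all tested genes 1.15% were higher. All 8 tested Oas genes and all 7 tested immunity-related GTPases, which attack the vacuoles of intracellular parasites, were higher, 2 and 4 of them outside the lists. The guanylate-binding proteins gave 7 of 10, the Schlafen genes 5 of 7 and the Ifit genes 4 of 6, with 4, 5 and 1 outside the lists, and members of these families share sequence. In the large Trim family of ubiquitin ligases 10 of 41 were higher and in the Parp family 4 of 13. Of the 177 genes, 73 (41.2%) were on the interferon, MHC class I or sensing lists. Rnf213, which like the next 3 genes is outside the lists and was chosen after its values were seen, is a giant ubiquitin ligase. It had a mean of 82.9 CPM with antisense and of 933 CPM with plasmid (log2 fold change 3.49, adjusted p = 0.0119). Ly6e, a surface protein that inhibits viral entry, had means of 35.0 and 500.5 CPM. The enzymes that attach ISG15 rose too: the activating enzyme Uba7 from a mean of 19.7 to 165 CPM, and the conjugating enzyme Ube2l6 from 10.8 to 137 CPM.

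Most listed genes of antigen presentation by MHC class I were higher. Of 21 tested genes 17 were higher (81.0%, against 1.15% of all tested genes) and none lower, with a median log2 fold change of 1.72; without either antisense replicate 4 were called. Nlrc5, the master activator of these genes, went from 0.134 and 0.198 CPM to 8.56, 27.2 and 35.4 CPM (7.12 ± 0.86, adjusted p = 0.00331), but was not called without antisense replicate 1 (0.0988) or 2 (0.0857). The heavy chain H2-K1 went from 18.3 and 16.2 CPM to 92.9, 222 and 336 CPM, and H2-D1 from 30.7 and 24.3 CPM to 178, 392 and 552 CPM. Both groups of libraries were far apart, but with the batch block the adjusted p was 0.0729 and 0.0505, and for H2-Q4 it was 0.137. H2-Q4 was also not called with the 5 libraries alone, without plasmid replicate 2 or without either antisense library (adjusted p from 0.0539 to 0.374). Of 13 tested H2 class I genes, grouped by symbol after the values were seen, 6 were higher and 7 did not pass, among them the list member H2-Q7, at 0 CPM with antisense and at 0, 0.770 and 1.304 CPM with plasmid. Heavy-chain genes share much sequence, so their separate values are uncertain. The light chain B2m rose from 203 and 165 CPM to 699, 1013 and 1285 CPM (2.44 ± 0.26, adjusted p = 0.00117). The peptide transporter subunit Tap1 rose by 2.18 ± 0.21 and Tap2 by 0.93 ± 0.18. The immunoproteasome subunits Psmb8, Psmb9 and Psmb10 rose by 3.61 ± 0.34, 3.05 ± 0.34 and 2.33 ± 0.29. They and the activator subunits Psme1 and Psme2 were the only genes called among 48 tested whose symbols begin with Psm. The general chaperones Calr, Canx and Pdia3 did not pass, with log2 fold changes of 0.45, 0.28 and 0.45.

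Of 29 tested chemokine and NF-kB genes, which include inflammatory genes that NF-kB drives, 1 was higher (3.4%, against 1.15% of all tested genes) and none lower. That gene was Ccl5, a T-cell attractant, with no antisense count and 8.69, 27.0 and 40.2 CPM with plasmid, at least 179-fold higher (adjusted p = 0.00642). With the 5 libraries alone (0.0568) or without antisense replicate 1 (0.0827) or 2 (0.0790) it was not called. Cxcl10, an interferon-induced chemokine, was read at 0.0446 and 0 CPM with antisense and at 0.901, 3.08 and 16.04 CPM with plasmid. Its adjusted p was 0.284, and 0.0224 with the batch block. Ccl2, a monocyte attractant, lay at 1.74 and 1.28 CPM with antisense and at 3.74, 5.78 and 49.3 CPM with plasmid. The groups did not overlap and replicate 3 was far above the rest (adjusted p = 0.419, and 0.0033 with batches P17 and P18 alone and the block). With the batch block over all libraries of the run Ccl2 was not called. Il6 lay at 0.0450, 0.385 and 0.737 CPM with plasmid, with no antisense count (adjusted p = 0.390). Nfkbia and Sod2, usual targets of NF-kB, had log2 fold changes of -0.31 ± 0.16 and -0.03 ± 0.13.

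Only 4 genes were lower with plasmid, each by less on the log2 scale than the median change of 3.86 among the genes called higher. Rdm1, a gene of DNA repair, lay at 18.7 and 20.8 CPM with antisense and at 4.46, 2.31 and 1.42 CPM with plasmid (log2 fold change -2.84 ± 0.36, adjusted p = 0.00349). Eapp, a protein that binds E2F factors, went from 60.8 and 55.1 CPM to 30.8, 19.8 and 24.8 CPM (-1.20 ± 0.17). Arl4d, a small GTPase, went from 9.80 and 9.58 CPM to 5.13, 4.24 and 4.59 CPM (-1.06 ± 0.17). The groups did not overlap for any of the 4. Pdgfa, a growth factor for mesenchymal cells, lay at 105.5 and 123 CPM with antisense and at 71.0, 74.8 and 64.2 CPM with plasmid (-0.71 ± 0.12, adjusted p = 0.0171). It was not called with the GC content and length correction (adjusted p = 0.0566), with the 5 libraries alone (0.117) or without antisense replicate 1 (0.0698) or 2 (0.279). The other 3 were not called with the 5 libraries alone or without antisense replicate 2 (adjusted p from 0.0502 to 0.192), and Eapp and Arl4d also not without antisense replicate 1 (0.0924 and 0.177) and Arl4d not without plasmid replicate 2 (0.0708). With no untransfected libraries, a lower level with plasmid is equally a higher level with antisense.

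No member of the other 11 lists was called in either direction, but the mitosis genes lay on 1 side. All 40 mitosis genes had a log2 fold change above 0, with a median of 2.30, and in 36 of them every plasmid library exceeded both antisense libraries, against 14.9% of all tested genes. Mki67, a proliferation marker, lay at 3.97 and 6.52 CPM with antisense and at 9.19, 14.6 and 49.0 CPM with plasmid (adjusted p = 0.498). Top2a, the topoisomerase of dividing cells, lay at 9.71 and 17.1 CPM and at 21.5, 30.4 and 124 CPM (adjusted p = 0.514). In both genes plasmid replicate 3 was far above the other plasmid libraries. Without it the median of the list was 1.01, and within batches P17 and P18 it was 1.08 and 0.95. With the batch block 25 of the 40 were higher, among them Mki67 at an adjusted p of 0.000809. The summed level of the list was also higher in the run 2 libraries labelled as CASC15 knockdown, at 0.0387% and 0.0602% of counts, than in plasmid control replicates 1 and 2, at 0.0276% and 0.0332%. Plasmid control replicate 3, of batch P19, had 0.141%. The P19 library with the CASC15 plasmid had 0.194%, against 0.0476% and 0.0594% in the others. In the untreated run 3 antisense controls it was 0.0748%, against 0.0328% to 0.0434%. The part of the batch was not tested.

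**Figure D4:**
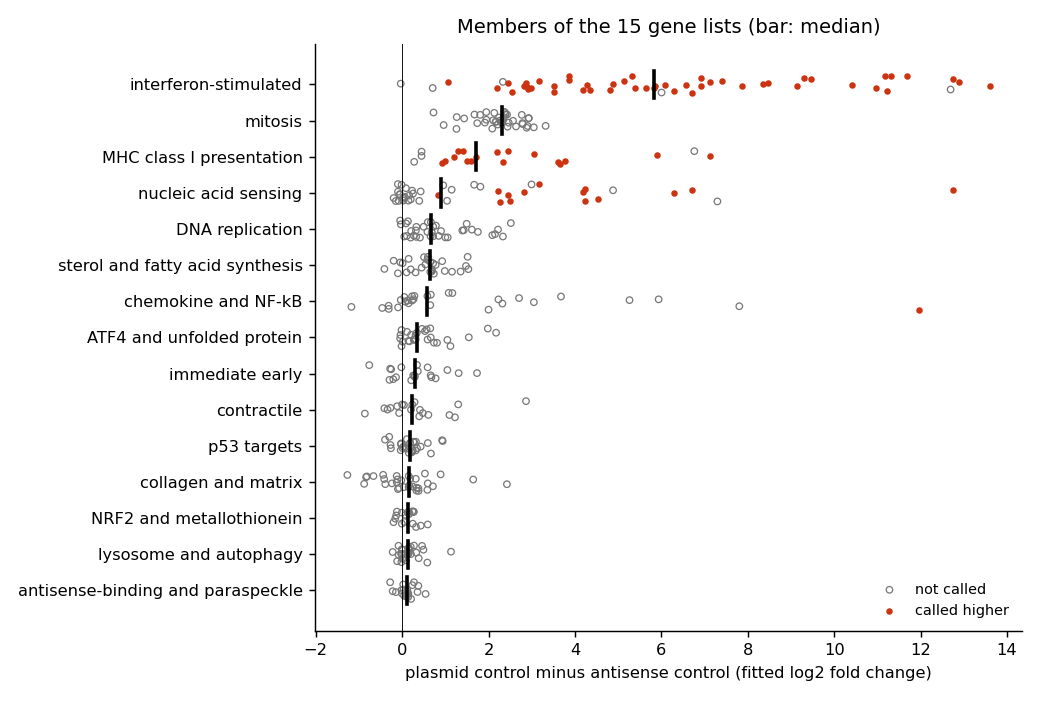
Fitted log2 fold change of plasmid over antisense control for each tested member of the 15 gene lists, filled where it passed the test, with the median as a bar. The interferon-stimulated list has the highest median, 5.84, MHC class I follows mitosis at 1.72 with 17 called members, and the mitosis list lies above 0 without a called member.

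The 10 remaining lists had medians between 0.11 and 0.67. The highest was that of DNA replication, at 0.67, or 0.24 without plasmid replicate 3. Sterol and fatty acid synthesis had 0.65, or 0.07 without that library, so these shifts too came mostly from the plasmid library of batch P19. Sterol genes took 0.450% of its counts, against 0.316% and 0.298% in plasmid replicates 1 and 2. With the CASC15 plasmid the P19 library had 0.417%, against 0.289% and 0.2575%. In the untreated run 3 antisense controls it was 0.899%, against 0.487% to 0.543%. The part of the batch was not tested. The medians were 0.34 for ATF4 and unfolded protein genes, 0.29 for immediate early genes and 0.23 for contractile genes. They were 0.19 for p53 targets, 0.15 for collagen and matrix, 0.14 for NRF2 and metallothionein genes, 0.14 for lysosome and autophagy, and 0.11 for proteins that bind antisense oligonucleotides or form paraspeckles. Cdkn1a, the p53-induced cell cycle inhibitor, overlapped between the groups at 179 and 134 against 178, 158 and 226 CPM. Neat1, the paraspeckle RNA, overlapped at 479 and 747 against 714, 988 and 650 CPM, but within batches P17 and P18 its log2 ratio of plasmid to antisense was 0.57 and 0.40. Acta2, actin of the contractile apparatus, had a log2 fold change of 1.09 ± 0.52, and 0.35 without plasmid replicate 3. With batches P17 and P18 alone and the block both were called higher, Neat1 at 0.48 (adjusted p = 0.0125) and Acta2 at 0.33 (adjusted p = 0.0271). With the batch block 3 members of DNA replication, 3 of the ATF4 list, 2 of collagen and matrix and 1 of the immediate early genes were called higher, where that fit called 2.36% of all tested genes higher. The CASC15 gene, read as 2610307P16Rik, lay at 7.66 and 6.37 CPM with antisense and at 8.69, 6.55 and 4.03 CPM with plasmid, overlapping between the groups (adjusted p = 0.903).

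The size of the response varied among the plasmid libraries. The interferon-stimulated list took 0.905% to 1.83% of their counts, and 0.0779% and 0.0926% with antisense. Plasmid replicate 1 was the lowest of the plasmid libraries in 173 of the 177 genes. Replicate 3 was the highest in 127 and replicate 2 in 50. Such orders were not counted over all tested genes. The median ratio to replicate 1 was 1.95 in replicate 2 and 2.16 in replicate 3. Within batch P17 the interferon-stimulated list had a median log2 ratio of plasmid to antisense of 4.89, and within P18 of 5.61. The response was thus seen in both batches that hold both agents, and 48 of its 53 genes were called without plasmid replicate 3.

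The same 2 kinds of nucleic acid were set against each other in other libraries of the run: 3 plasmid libraries labelled as total CASC15 overexpression and 2 antisense libraries labelled as total CASC15 knockdown, in the same batches. The titles of replicates 2 and 3 carry other CASC numbers, and these libraries were grouped by the target code that their descriptions share with replicate 1. The target, read as 2610307P16Rik, lay at 604, 916 and 628.5 CPM in the overexpression libraries. In the libraries labelled as knockdown it lay at 9.73 and 8.29 CPM, not under the 7.66 and 6.37 CPM of the antisense controls, so its level goes against that label. Macrophage markers summed to 17.9 and 21.4 CPM in the libraries labelled as knockdown, against 0.594 to 1.44 CPM in the 5 control libraries. Most of that sum was Cd68, with a mean of 15.8 CPM there, while Ptprc, Tyrobp and Mrc1 had no count in those 2 libraries and Adgre1 had 0 and 1. The Cd68 difference between the comparisons was called (adjusted p = 0.00918). Epithelial markers summed to 427 and 502 CPM and endothelial markers to 5.90 and 9.78 CPM in the libraries labelled as knockdown, against 204 to 281.5 CPM and 2.39 to 4.81 CPM in the 5 control libraries. Genes with at least 3 counts numbered 17416 and 18450 in the libraries labelled as knockdown and 16041 to 16896 in the other run 2 libraries. The part of these measures in the calls was not tested. The CASC15 comparison shares no library with the controls, but its target differs too. In it 1324 genes were higher with plasmid (8.63%) and 1420 lower (9.25%). Of the 177 genes higher in the controls, 173 (97.7% of the 177 and 13.1% of the 1324) were also higher there, and the 4 lower genes were lower in both. Gm12185, Gzmm, Tmem236 and Gm42815 were the exceptions, named after their values were seen, and Gzmm went the opposite way. A test of the difference between both comparisons called 189 genes of all tested (1.23%), but none of the interferon-stimulated or MHC class I lists. Its counts moved with single libraries: with the CASC15 difference above or under that of the controls it called 65 and 124, but 6 and 7 without antisense control replicate 1, 14 and 19 without replicate 2, and 10 and 5 without replicate 2 of those labelled as knockdown. So a gene not called by it is not shown to respond alike. Of the 177, only Gzmm and Gm42815 were among the 189. Averaged over both arms, 1338 genes were higher (8.72%) and 1102 lower (7.18%).

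**Figure D5:**
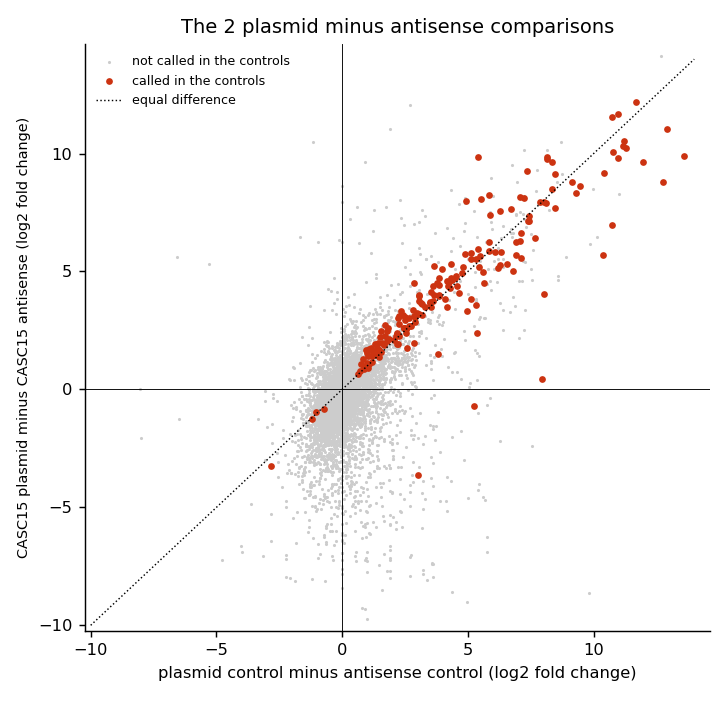
Log2 fold change of plasmid over antisense in the controls (x axis) and in the CASC15 libraries (y axis), 1 point per tested gene, with genes called in the controls in red. The red points lie along the dotted line of equal difference, with Gzmm and a few others off it, and many grey points lie far from 0 on the y axis.

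Interferon-stimulated genes were higher with either plasmid. The median log2 fold change of the interferon-stimulated list was 5.84 in the controls and 5.73 in the CASC15 libraries, where 52 of 53 were called higher. Ifit1 lay at 767, 1210 and 1117 CPM in the CASC15 plasmid libraries and at 1.35 and 2.20 CPM in the libraries labelled as knockdown, and the test of the difference between the arms did not pass (adjusted p = 0.605). Of the 29 chemokine and NF-kB genes 22 were called higher in the CASC15 libraries, where 8.63% of all tested genes were, and 1 in the controls, where 1.15% were. The difference itself was called for 5, against 1.23% of all tested genes. Ccl2, for example, reached 155, 331 and 601 CPM with the CASC15 plasmid, although its own difference between the arms did not pass (adjusted p = 0.606). Ifnb1 had 9, 13 and 24 counts with the CASC15 plasmid and none in the libraries labelled as knockdown.

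Run 3 offers 4 more untreated antisense controls and no plasmid library, so its levels are given as a description, and run and culture cannot be told apart. The interferon-stimulated list took 0.127% to 0.145% of their counts, above the 0.0779% and 0.0926% of run 2 antisense controls and under the 0.905% of the lowest plasmid library. Ifit1 lay at 5.55 to 8.53 CPM and Isg15 at 2.98 to 4.54 CPM there. Oas2 lay at 3.01 to 8.19 CPM and Oas1a at 2.57 to 4.62 CPM, above the run 2 antisense controls, where neither passed 0.198 CPM. Of the 4 lower genes, Eapp lay at 48.6 to 54.6 CPM, close to the antisense controls of run 2. Rdm1 lay at 4.66 to 7.43 CPM, between the run 2 groups. Arl4d lay at 5.08 to 7.74 CPM, overlapping the plasmid libraries at their upper end, and Pdgfa at 14.8 to 16.8 CPM, under both groups.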

How the data were processed

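RNA of 30 libraries was sequenced as paired reads of 75 bp, per the labels' protocols, and 10 libraries of run 2 entered the fit. The authors deposited a table of expected counts per gene, not scaled to depth. The submitters' processing notes name STAR 2.7.11b and RSEM 1.3.1 and the builds GRCm39 and mm10 without saying which served the table, so no coordinates of the table are given. RSEM divides reads shared by several genes. The strandedness is not given in the sources used here. Of 78334 identifiers 51486 received a symbol from the GENCODE and RefSeq tables, holding 98.7% of counts.

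Expected counts were rounded, filtered with filterByExpr (minimum count 10) and scaled by TMM. edgeR 4.0.16 in R 4.3.3 fitted a robust quasi-likelihood model with a coefficient per group over the 10 libraries, without a block, and genes were called at a Benjamini-Hochberg adjusted p under 0.05 over 15350 genes. CPM of single genes use TMM-scaled library sizes. Summed CPM of marker lists and shares of gene lists use the library total without that scaling. The common biological coefficient of variation was 0.232. The labels put replicate numbers and batches together (1 is P17, 2 is P18), so the numbers pair the libraries. After removing group means, same-numbered control libraries correlated at 0.168 on average over 2 pairs. The deviations of the 2 antisense libraries mirror each other. The mean of -0.084 for other pairs therefore follows from the first value and is no separate support for the pairing. The alternatives included DESeq2 1.42.0, the batch block and leaving out each library.

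The named genes were, of those called, the 10 that rose and the 10 that fell most (mean CPM of at least 5, no overlap, same direction in P17 and P18), up to 2 genes per list and direction, a set of fixed genes, and the 5 with the smallest adjusted p in the difference of both comparisons; other genes were named after their values were seen. The comparison, lists and genes were chosen with earlier results of these data known. Fold changes of genes without a count in both antisense libraries are lower bounds against 3 counts per library. Ratios with 1 to 3 antisense counts carry exact 95% intervals for counting error. The promoter window printed for a gene with several is one with a match where there is one. 1 gene of the lists is not reported here.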

Additional observations from a re-analysis of the deposited data

Results flagged for a closer look

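The test of the difference between both plasmid minus antisense comparisons called 189 genes, with the CASC15 fold change above that of the controls in 65 and under it in 124, in 113 of which its absolute size was larger. Among the named genes it called 7. The log2 difference of the comparisons was 6.43 for 2610307P16Rik, the gene read as the study's target. It was 3.29 for Zc3h12a, an RNase that restrains inflammation, 2.03 for Bcl3, an NF-kB cofactor, and 4.84 for Hp, haptoglobin. It was -0.97 for Ccng1, a p53 target, -3.78 for Myh11, smooth muscle myosin, and -6.01 for Evpl, envoplakin. None of the 7 was called between the control libraries. Myh11 lay at 4.31 and 6.67 CPM and Evpl at 13.7 and 22.5 CPM in the libraries labelled as CASC15 knockdown, and both were at 1.09 CPM or less in all control libraries of run 2.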

How the results depend on the processing

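With 18007199 to 21878931 counts per library and 2 antisense libraries, the counts of called genes moved widely between settings. Scaling by DESeq2's size factors within edgeR, a mean CPM of at least 1 and the correction for GC content and length left all counts of the control comparison within 1.5 times.

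In the control comparison, against 177 genes higher and 4 lower, DESeq2's Wald test gave 315 and 32, no filter on low counts 881 and 225, the 5 libraries alone 101 and 0, the replicate block 363 and 96, and batches P17 and P18 alone with the block 526 and 302. Without batch P19, an alternative chosen after seeing the data, 10 were lower. Leaving out 1 library at a time gave 67 to 256 higher and 0 to 21 lower, the highest without plasmid replicate 1.

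In the CASC15 libraries, against 1324 higher and 1420 lower, the replicate block gave 2633 and 2639, leaving out 1 library 358 to 1712 and 326 to 1835, and a minimum log2 change of 1 left 632 higher. For the difference of both comparisons, against 65 and 124, DESeq2 gave 217 and 309, no filter 325 and 643, the replicate block 551 and 894, the libraries without batch P19 158 and 218, and leaving out 1 library 6 to 107 and 5 to 164. Over both arms, against 1338 and 1102, no filter gave 2177 and 1777, the replicate block 2323 and 1994, that minimum gave 502 and 513, and leaving out 1 library 512 to 1572 and 300 to 1282.

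For mitosis, members called higher were 0, but 4 with DESeq2, 39 without a filter, 25 with the replicate block, 21 with P17 and P18 alone and 2 without batch P19. For DNA replication, in the same order, they were 1, 16, 3 and 2 (0 to 1 leaving out 1 library). For the chemokine and NF-kB list, against 1, they were 3, 11, 2 and 4, 2 without batch P19, 0 with the 5 libraries alone and 0 to 1 leaving out 1 library. For the ATF4 list they were 2, 10, 3 and 7, with 1 without batch P19, and for immediate early genes 1, 5, 1 and 2. For collagen and matrix they were 3 without a filter, 2 with the replicate block and 2 with P17 and P18 alone. Without a filter, 2 contractile, 3 p53, 2 lysosome, 14 sterol and 1 NRF2 genes were called higher, and with P17 and P18 alone 1, 1, 1, 2 and 2, plus 4 of the antisense-binding list. Lower calls appeared without a filter for 2 collagen and 1 immediate early genes, and with P17 and P18 alone for 2 sterol, 2 collagen and 1 immediate early genes. Leaving out 1 library gave 36 to 51 interferon-stimulated genes higher, 4 to 18 of MHC class I and 9 to 15 of sensing, and the 5 libraries alone gave 9 of MHC class I. The cause of these moves was not tested.

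Of the tested alternatives for named genes, 776 kept direction and call, 46 lost the call, 28 gained it and 28 turned the sign, the last only for genes not called. With the replicate block, the log2 fold change was 0.038 for Actn1, -0.048 for Tpm1, 0.051 for Tagln and 0.008 for 2610307P16Rik. With P17 and P18 alone it was 0.034, -0.062, 0.158 and 0.105, and without batch P19 0.043, -0.058, 0.166 and 0.117. It was 0.001 for Actn1 without a filter. With the GC content and length correction it was 0.005 for Actn1, 0.06 for Jund and 0.008 for Bcl3. Leaving out 1 library gave -0.099 to 0.049 for Actn1, -0.051 to 0.431 for Tpm1, -0.294 to 0.172 for Tagln, -0.413 to 0.122 for 2610307P16Rik, -0.331 to 0.012 for Npm1, -0.236 to 0.086 for Sqstm1, -0.036 to 0.586 for Fn1 and -0.297 to 0.024 for Jund. Besides the genes given in the report, the block changed the call of Top2a (adjusted p = 0.0161), Kif20a (0.00181) and Mcm6 (0.0251), by edgeR's quasi-likelihood test, and of no other named gene.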
